A study of Mus musculus with 17 samples.

Results

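Human chromosome 21 has its mouse counterparts on 3 chromosomes, and the Dp16 mouse, a model of Down syndrome, duplicates only the stretch on chromosome 16. The genes described here are 38 mouse orthologs of chromosome 21 genes that lie outside that duplication and that Dp16 mice therefore carry in the normal number. They were taken by name and chromosome from the 55385 genes of the tables. On chromosome 10 there were 28 of them, between positions 76207222 and 78464975 (GRCm38, 2.26 Mb), and on chromosome 17 there were 10, between 31057675 and 32062865 (1.01 Mb). The duplicated segment itself, from 75540514 to 97962622 on chromosome 16, held 384 genes of the tables and served as the comparison.

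Polyadenylated RNA from the whole hippocampus was sequenced from 17 mice aged 17.1 to 18.0 weeks, 1 library per mouse. WT mice were wild-type C57BL/6J animals (n = 6, 3 females and 3 males). Dp16 mice carried the duplication (n = 6, 3 females and 3 males). Dp16_2xIFNRs mice carried the same duplication, but their interferon receptor genes, which lie inside it, were brought back to the normal number (n = 5, 3 females and 2 males). The strain background of the duplication lines is not given in the labels, and no group was treated.

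In people with trisomy 21 these genes are present in an extra copy, so a mouse that lacks their extra copy models only the other part of the human gene set. A gene outside a duplicated segment can still change its RNA level when a regulator inside the segment is in excess, or when the cell makeup of the tissue shifts. The orthologs have unrelated jobs: splicing and ribosome assembly, conjugation of ubiquitin-like proteins, sugar and lipid metabolism, the extracellular matrix, immune adhesion, glial calcium binding, the centrosome and the cilium. In bulk tissue, fewer cells of a type and less RNA per cell cannot be told apart.

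Each library held 30.4 to 33.1 M counts (M, mega). All 8 hippocampal neuron markers were measured, with summed levels of 447 to 606 CPM (counts per M of the scaled library) over the 17 libraries. WT replicate 4 stood apart in markers of thalamic neurons, summing to 475 CPM against 105 to 151 CPM in the other libraries. WT replicate 6, Dp16 replicate 6 and Dp16_2xIFNRs replicate 5 were nearly free of choroid plexus markers, at 226, 270 and 338 CPM against 3390 to 8740 CPM in the others. Fibroblast markers summed to 88.2 to 125 CPM in WT, 86.3 to 154 CPM in Dp16 and 111 to 173 CPM in Dp16_2xIFNRs mice. The part of these differences in any result on the orthologs was not tested, and the values are repeated beside the genes they move with.

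The median ortholog lay at the WT level in both duplication genotypes, far from the median of the duplicated segment. Of the 38, 35 had enough counts to be tested with edgeR, and 3 (Ftcd, Hsf2bp and Spatc1l) did not. Their median log2 fold change against WT was -0.002 in Dp16 and -0.006 in Dp16_2xIFNRs mice, beside -0.006 and 0.004 over all 18983 tested genes. In Dp16 mice the median was 0.016 for the 26 on chromosome 10 and -0.127 for the 9 on chromosome 17, of which 7 were negative. In Dp16_2xIFNRs mice these medians were -0.009 and -0.002. The difference between the chromosomes was not tested. The 101 segment genes with at least 1 CPM had medians of 0.563 and 0.549. In each comparison 30 of the 35 orthologs lay within 0.2 log2 units of WT. Of all 18983 tested genes, 14663 did so in Dp16 and 13143 in Dp16_2xIFNRs mice.

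The same held mouse by mouse. The median ortholog stood at a log2 ratio to the WT mean of 0.00734 ± 0.043 (SD, n = 6) in WT, 0.0168 ± 0.0161 (n = 6) in Dp16 and -0.00777 ± 0.0367 (n = 5) in Dp16_2xIFNRs mice. The ranges were -0.057 to 0.067, 0 to 0.04 and -0.052 to 0.031, so the groups overlapped. The segment median in the same mice was 0.00223 ± 0.0199 in WT, 0.563 ± 0.013 in Dp16 and 0.545 ± 0.0123 in Dp16_2xIFNRs mice, without overlap between WT and either duplication group.

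**Figure D1:**
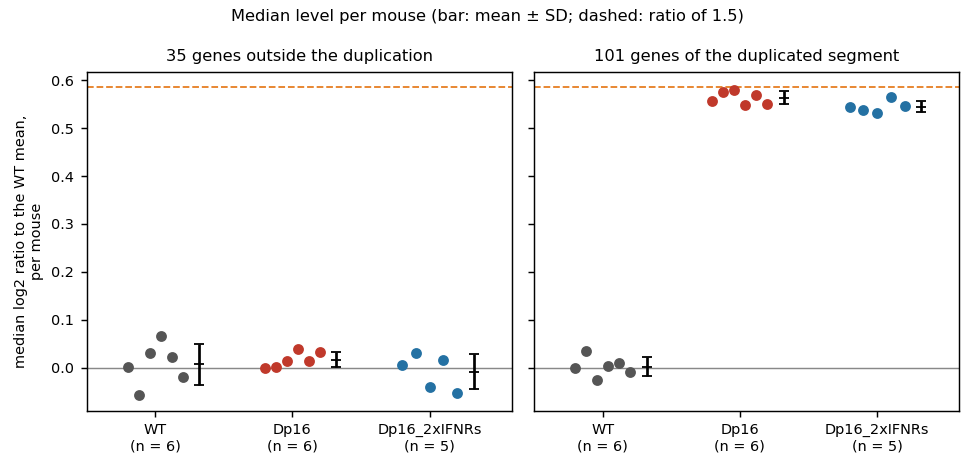
Median log2 ratio to the WT mean (vertical axis) in each mouse (points), for the 35 tested orthologs outside the duplication (left) and the 101 genes of the duplicated segment (right), with mean and SD per group (bars) and the ratio of 1.5 (dashed line). The orthologs lie between -0.057 and 0.067 in all 17 mice, and the segment genes lie between 0.532 and 0.58 in the 11 mice with the duplication.

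No ortholog passed the test in Dp16 mice, where 0.537% of all tested genes did (adjusted p under 0.05, edgeR quasi-likelihood test). At an unadjusted p under 0.05 there were 5 of 35, of which 3 were higher (5.61% of all genes) and 2 lower (3.97%). In Dp16_2xIFNRs mice 1 of 35 passed, Pcnt, which was lower. Of all genes 0.980% passed, and 0.342% passed as lower. Unadjusted, 7 of 35 were under 0.05, 4 higher (8.44% of all genes) and 3 lower (8.60%). Between the duplication groups 0 of 35 passed (0.0158% of all genes) and 5 were under 0.05 unadjusted (10.5%). With both duplication groups together against WT, 0 of 35 passed (1.04%) and 8 were under 0.05 unadjusted (14.6%). DESeq2 called 0, 3 (Pcnt, Sumo3 and Col6a2), 0 and 1 (Pcnt) orthologs in these 4 comparisons, where it called 1.13%, 3.61%, 0.0316% and 2.64% of all genes with an adjusted p. Both comparisons against WT share the same 6 WT libraries.

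The precision allowed most orthologs to be placed below the level an extra copy would give. A test against a 1.5-fold level put 34 of 35 orthologs significantly below it in Dp16 mice. Beside these stood 82.6% of all tested genes, 8 of all 122 tested segment genes and 7 of the 101 with at least 1 CPM. In Dp16_2xIFNRs mice 31 of 35 were below it, beside 76.3% of all genes, 17 of the 122 segment genes and 15 of the 101. The segment includes the interferon receptor genes, which these mice carry in the normal number. Col6a2 was the exception in Dp16 mice (adjusted p = 0.0983 against 1.5-fold, edgeR). In Dp16_2xIFNRs mice the exceptions were Col6a1 (0.729), Col6a2 (0.535), Icosl (0.105) and Col18a1 (0.0783). The standard error of a log2 fold change in the Dp16 comparison had a median of 0.07 and ran from 0.04 to 0.33.

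**Figure D2:**
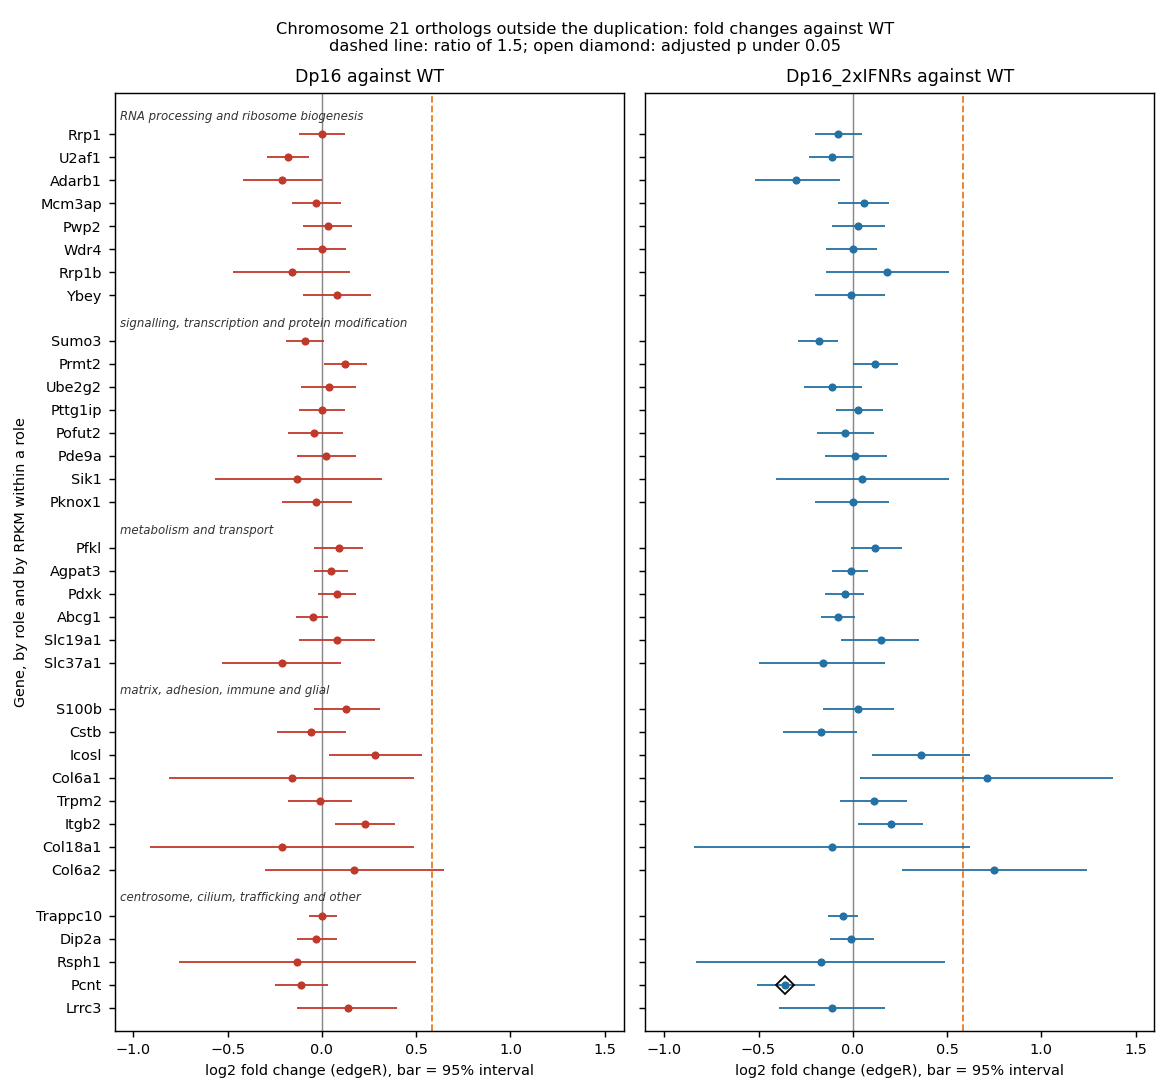
Log2 fold change against WT (horizontal axis) with 95% intervals (bars) for the 35 tested orthologs (vertical axis, grouped by role), in Dp16 (left) and Dp16_2xIFNRs mice (right); the dashed line marks a ratio of 1.5 and the open diamond a gene with adjusted p under 0.05. Pcnt is the gene so marked, at -0.36 on the right, and the widest intervals belong to Col18a1, Col6a1 and Rsph1.

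The orthologs covered a wide range of levels. Per gene length, the tested genes ran from 1.13 RPKM (reads per kilobase per M) for Slc37a1 to 136 RPKM for Rrp1, with a median of 6.97 RPKM, and 16 of 35 were above 10 RPKM. The spread between mice of the same genotype had a median coefficient of variation of 7.93% and was under 10% in 22 genes. It was above 20% in 6 genes, with 48.4% for Col6a1, 42.1% for Col18a1, 35.4% for Rsph1, 33.7% for Col6a2, 25.2% for Sik1 and 21.5% for Rrp1b.

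**Figure D3:**
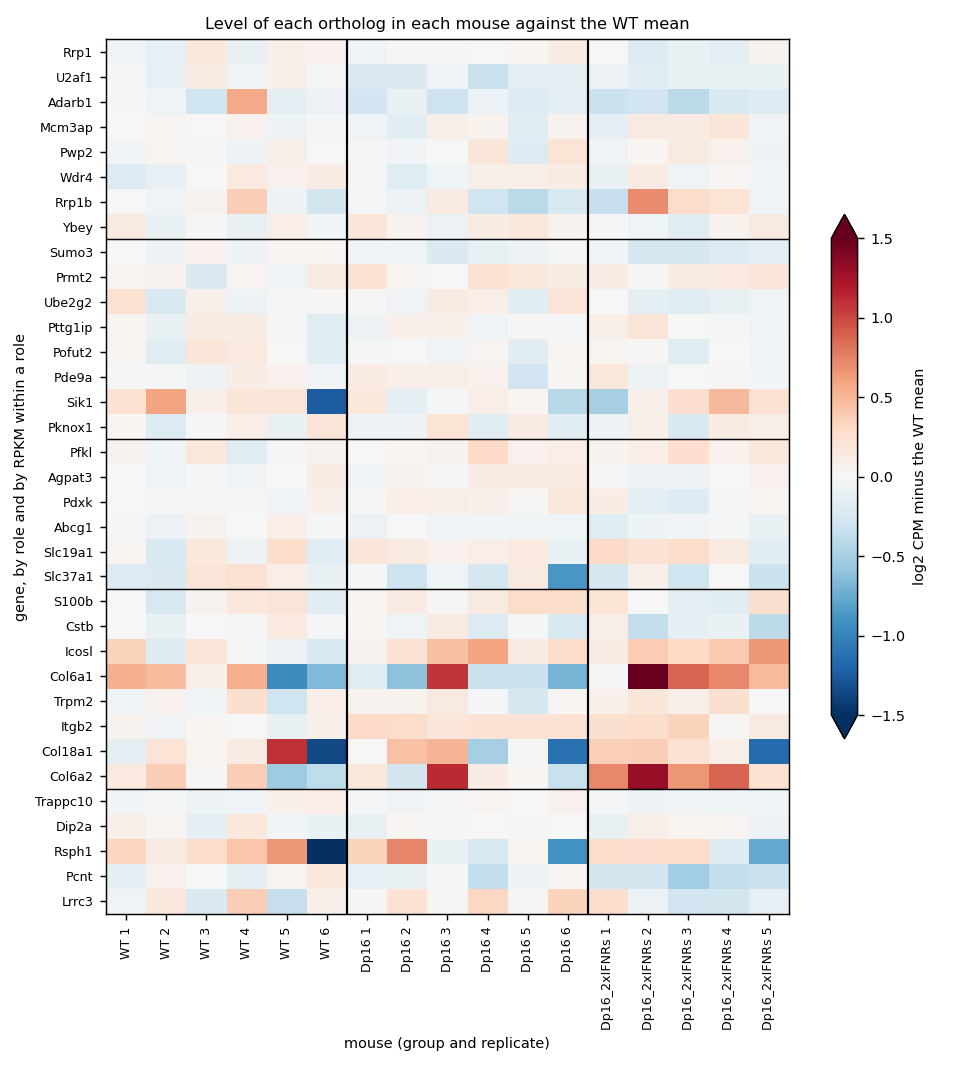
Log2 CPM minus the WT mean (colour) for the 35 tested orthologs (rows, by role) in the 17 mice (columns, by group and replicate). Most rows are pale in all mice, and the strong colours sit in Col6a1, Col6a2, Col18a1, Rsph1 and Sik1 and in single mice such as WT replicate 6.

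The 8 genes of RNA processing and ribosome biogenesis had a median log2 fold change of -0.015 in Dp16 and -0.008 in Dp16_2xIFNRs mice, and none passed the test. Rrp1, which takes part in ribosomal RNA processing, was the most abundant ortholog, above 98.3% of tested genes. Its levels ran from 250 to 304 CPM in WT (median 274), from 262 to 295 CPM in Dp16 (median 270) and from 238 to 282 CPM in Dp16_2xIFNRs mice (median 255). The groups overlapped widely, with log2 fold changes of 0 ± 0.06 (SE) and -0.08 ± 0.06.

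U2af1 encodes the small subunit of the factor that recognises the 3' splice site. It lies on chromosome 17 from 31647081 to 31658892. It measured 35.9 to 42.6 CPM in WT (median 38.8), 31 to 37.5 CPM in Dp16 (median 34.7) and 34.7 to 37.3 CPM in Dp16_2xIFNRs mice (median 36.5). The Dp16 mice lay lower but overlapped WT. The log2 fold change was -0.18 ± 0.05 in Dp16 (unadjusted p = 0.00274, adjusted p = 0.19 by edgeR) and -0.11 ± 0.06 in Dp16_2xIFNRs mice. Its large-subunit partner U2af2 was at -0.06 ± 0.04 and -0.01 ± 0.04.

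Adarb1 encodes ADAR2, the enzyme that edits adenosine to inosine in glutamate receptor transcripts, and lies on chromosome 10 from 77290726 to 77418270. Levels were 179 to 327 CPM in WT (median 209), 178 to 207 CPM in Dp16 (median 197) and 176, 181, 167, 188 and 193 CPM in the 5 Dp16_2xIFNRs mice. The highest WT value belonged to WT replicate 4, the library high in thalamic markers, and the other WT mice lay at 179 to 224 CPM. The log2 fold change was -0.21 ± 0.1 in Dp16 and -0.3 ± 0.11 in Dp16_2xIFNRs mice (adjusted p = 0.515 and 0.173 by edgeR). Without WT replicate 4 these were -0.08 and -0.18 (adjusted p = 0.745 and 0.119). The related editing enzyme Adar was at 0.15 ± 0.05 and 0.13 ± 0.05, also not past the threshold.

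The other 5 genes of this role were Rrp1b and Pwp2 (ribosome assembly), Ybey (mitochondrial ribosomal RNA maturation), Wdr4 (the partner of Mettl1 in transfer RNA methylation) and Mcm3ap (messenger RNA export). Their log2 fold changes lay between -0.16 and 0.08 in Dp16 and between -0.01 and 0.18 in Dp16_2xIFNRs mice. Rrp1b was the least even, at 7.92, 16.5, 12.2, 11.6 and 9.69 CPM in the Dp16_2xIFNRs mice against 7.56 to 11 CPM in Dp16. That difference of 0.35 ± 0.15 had an unadjusted p of 0.0373 and an adjusted p of 0.458, and it was 0.19 without Dp16_2xIFNRs replicate 2, the mouse at 16.5 CPM (adjusted p = 0.909). Rrp1b overlaps Hsf2bp on the opposite strand, and Ybey overlaps Mcm3ap.

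The 8 genes of signalling, transcription and protein modification had medians of -0.014 and 0.005, and none passed the test. Sumo3, a small protein that is attached to target proteins, lies on chromosome 10 from 77606097 to 77618331. Its levels were 111 to 122 CPM in WT (median 117), 99.8 to 114 CPM in Dp16 (median 111) and 113, 97.3, 96.6, 101 and 105 CPM in the Dp16_2xIFNRs mice. In that last group 4 of 5 mice were below every WT mouse and the remaining one overlapped. The log2 fold change was -0.18 ± 0.05 in Dp16_2xIFNRs mice (adjusted p = 0.0882 by edgeR) and -0.09 ± 0.05 in Dp16. DESeq2 put the first of these at an adjusted p of 0.0253, edgeR without Dp16_2xIFNRs replicate 1 at 0.0303, and limma on log2 RPKM plus 0.1 or plus 1 at 0.0449 and 0.042. The paralog Sumo2 (-0.01 and -0.08) did not pass the edgeR test in either comparison.

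Prmt2, an arginine methyltransferase, measured 49.6 to 63.3 CPM in WT (median 59.5), 57.7 to 66.9 CPM in Dp16 (median 63.4) and 58.3 to 65.3 CPM in Dp16_2xIFNRs mice (median 62.6). All groups overlapped. Its log2 fold change was 0.12 ± 0.05 in Dp16 (unadjusted p = 0.0387, adjusted p = 0.496) and 0.12 ± 0.06 in Dp16_2xIFNRs mice.

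Sik1, a kinase gene switched on by neuronal activity, ranged from 6.65 to 24 CPM in WT (median 18.1), from 11.9 to 17.7 CPM in Dp16 (median 16) and from 11.3 to 22.3 CPM in Dp16_2xIFNRs mice (median 18.5). The lowest value of all belonged to WT replicate 6 and the lowest in Dp16 to replicate 6, both libraries nearly free of choroid plexus markers. The Dp16_2xIFNRs library of that kind, replicate 5, was not the lowest of its group (log2 CPM 4.213 against 3.5 in replicate 1). The groups overlapped (-0.13 ± 0.21 and 0.05 ± 0.22). The remaining 5 genes were Pknox1 (a homeodomain transcription factor), Ube2g2 (a ubiquitin-conjugating enzyme of the endoplasmic reticulum), Pttg1ip, Pofut2 (an O-fucosyltransferase) and Pde9a (a cyclic GMP phosphodiesterase). With Sik1 they lay between -0.13 and 0.04 in Dp16 and between -0.11 and 0.05 in Dp16_2xIFNRs mice, with lowest adjusted p-values of 0.892 and 0.476. Sumo3 and Ube2g2 share a read-through gene, Gm49325, which held 0 to 5 counts per library.

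The 6 tested genes of metabolism and transport had medians of 0.065 and -0.027, with none past the test. Pfkl, the liver-type subunit of phosphofructokinase in glycolysis, measured 174 to 222 CPM in WT (median 199), 197 to 241 CPM in Dp16 (median 206) and 204 to 236 CPM in Dp16_2xIFNRs mice (median 211). The groups overlapped, with log2 fold changes of 0.09 ± 0.06 and 0.12 ± 0.06. Its paralogs Pfkm (0.03 and 0.02) and Pfkp (0.08 and 0.02) did not pass the test.

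Agpat3, an acyltransferase of phospholipid synthesis, was among the steadiest, at 260 to 292 CPM in WT (median 267), 259 to 294 CPM in Dp16 (median 285) and 255 to 281 CPM in Dp16_2xIFNRs mice (median 268). Its log2 fold changes were 0.05 ± 0.04 and -0.01 ± 0.05. Pdxk (pyridoxal kinase, which activates vitamin B6), Abcg1 (a cholesterol exporter), Slc19a1 (the reduced folate carrier) and Slc37a1 (a sugar phosphate exchanger) lay between -0.21 and 0.08 in Dp16 and between -0.16 and 0.15 in Dp16_2xIFNRs mice. Between the duplication groups Pdxk differed by -0.12 ± 0.05 (unadjusted p = 0.03, adjusted p = 0.445). Ftcd, an enzyme of histidine breakdown, had 0 to 3 counts per library.

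The 8 genes of the matrix, adhesion, immune and glial group had medians of 0.063 in Dp16 and 0.153 in Dp16_2xIFNRs mice, the latter the highest of the 5 roles, but none passed the test. Of the 7 unadjusted p-values under 0.05 in Dp16_2xIFNRs mice, 4 were in this group, all higher: Col6a1, Col6a2, Itgb2 and Icosl.

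Col6a1 and Col6a2 encode chains that assemble with other chains into collagen VI, a microfibril of the extracellular matrix. They are neighbours on the minus strand of chromosome 10, at 76708792 to 76726168 and 76595762 to 76623630. Their promoter windows (RefSeq, GRCm38.p6, 250 bases before to 50 after the start, 5′ to 3′ on the minus strand) are shown because the levels of both genes moved together from mouse to mouse. Capitals mark a GC box (GGGCGG on either strand).
Col6a1, chr10:76725995-76726294: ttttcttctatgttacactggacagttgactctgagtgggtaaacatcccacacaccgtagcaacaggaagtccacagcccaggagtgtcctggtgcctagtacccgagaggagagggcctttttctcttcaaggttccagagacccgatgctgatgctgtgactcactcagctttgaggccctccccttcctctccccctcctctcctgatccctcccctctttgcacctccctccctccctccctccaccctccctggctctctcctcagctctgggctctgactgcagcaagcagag
Col6a2, chr10:76623581-76623880: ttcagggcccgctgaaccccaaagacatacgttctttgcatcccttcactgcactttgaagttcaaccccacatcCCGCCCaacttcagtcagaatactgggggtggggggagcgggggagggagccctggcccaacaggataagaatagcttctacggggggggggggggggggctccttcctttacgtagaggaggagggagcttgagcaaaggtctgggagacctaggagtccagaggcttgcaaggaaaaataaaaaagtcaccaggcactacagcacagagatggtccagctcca
The GC box occurs 1 time in the Col6a2 window and 0 times in that of Col6a1, while 35.7% of the 32851 windows of the table hold it on either strand. Neither window holds CCAAT (37.4% of windows) or TATAAA (13.6%). Windows were found for 29 of the 38 orthologs. Col6a2 has 2 windows in the table, of which the one at the annotated gene start is shown, and the start in the Col6a1 window lies 124 bases from that of the gene model used here.

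Col6a1 measured 6.4 to 18.2 CPM in WT (median 15.2), 7.65 to 26.4 CPM in Dp16 (median 9.97) and 12.2, 37.9, 23, 20.6 and 17.4 CPM in the Dp16_2xIFNRs mice. Col6a2 measured 3.85 to 7.27 CPM in WT (median 5.94), 4.41 to 12.2 CPM in Dp16 (median 5.87) and 9.25, 14, 8.92, 10.3 and 6.54 CPM in the Dp16_2xIFNRs mice. Dp16 replicate 3 was the highest Dp16 mouse for both genes and Dp16_2xIFNRs replicate 2 the highest of all, and the groups overlapped. In Dp16_2xIFNRs mice the log2 fold change was 0.71 ± 0.32 for Col6a1 and 0.75 ± 0.23 for Col6a2 (adjusted p = 0.265 and 0.125 by edgeR). Without Dp16_2xIFNRs replicate 2 these were 0.5 and 0.62 (adjusted p = 0.571 and 0.315). For Col6a2, DESeq2 gave an adjusted p of 0.0391, and edgeR without a filter on low counts gave 0.0255. In Dp16 mice the changes were -0.16 ± 0.31 and 0.17 ± 0.23.

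Fibroblast markers were higher in the same direction: 8 of 8 had a positive log2 fold change in Dp16_2xIFNRs mice (median 0.597). In edgeR 5 of them had an unadjusted p under 0.05, beside 8.44% of all genes as higher, and 0 passed the adjusted threshold. DESeq2 called 2 (Col1a1 and Slc6a13), beside 3.61% of all genes. In Dp16 mice 7 of 8 fibroblast markers were positive (median 0.231), where Col6a1 stood at -0.16 and Col6a2 at 0.17. Of the markers of mural cells, 5 of 7 were positive in Dp16_2xIFNRs mice (median 0.152) and 2 of 7 in Dp16 mice (median -0.003). The part of either list in the collagen values was not tested. Of other collagen genes, Col4a1 and Col4a2 of the basement membrane stood at 0.6 ± 0.16 and 0.79 ± 0.2 in Dp16_2xIFNRs mice (adjusted p = 0.0818 and 0.0607 by edgeR, both called by DESeq2). Col6a3, another collagen VI chain, stood at 0.03 ± 0.38. Across the 17 mice Col6a2 followed Col6a1 (Pearson r = 0.907, Spearman rho = 0.89, adjusted permutation p = 4e-05 and 0.00016), a pair chosen after its values were seen. Without the 2 mice farthest from the median r was 0.846, and within genotypes it was 0.901.

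Itgb2 encodes CD18, the shared beta chain of leukocyte integrins, made by microglia and other myeloid cells in brain. It lies on chromosome 10 from 77530252 to 77565708. Its levels were 4.72 to 5.4 CPM in WT (median 5.18), 5.83 to 6.27 CPM in Dp16 (median 5.94) and 6.05, 6.14, 6.44, 5.18 and 5.65 CPM in the Dp16_2xIFNRs mice. All 6 Dp16 mice were above all 6 WT mice, the only ortholog without overlap in that comparison, beside 0.990% of all tested genes. The Dp16_2xIFNRs mice overlapped WT through replicate 4. The log2 fold change was 0.23 ± 0.08 in Dp16 (unadjusted p = 0.00754, adjusted p = 0.309 by edgeR) and 0.2 ± 0.08 in Dp16_2xIFNRs mice (adjusted p = 0.225). The 8 microglia markers had median log2 fold changes of -0.054 and -0.072 in the same comparisons, with summed levels of 372 to 472 CPM in WT, 374 to 442 CPM in Dp16 and 357 to 430 CPM in Dp16_2xIFNRs mice. The alpha chain Itgam stood at 0.02 ± 0.12 and -0.04 ± 0.12. Itgax, at 0.0579 RPKM in WT, stood at 0.82 ± 0.4 and 1.21 ± 0.4, neither past the threshold (adjusted p = 0.53 and 0.152).

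Icosl, the ligand of the T cell costimulator ICOS, measured 8.73 to 13.1 CPM in WT (median 9.89), 10.6 to 15.5 CPM in Dp16 (median 12.2) and 11.1, 13.4, 12.7, 13.5 and 16.2 CPM in the Dp16_2xIFNRs mice. Both duplication groups lay higher and overlapped WT. The log2 fold changes were 0.28 ± 0.12 and 0.36 ± 0.12 (adjusted p = 0.461 and 0.154 by edgeR). Without the 3 libraries low in choroid plexus the value in Dp16_2xIFNRs mice was 0.24 (adjusted p = 0.4).

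**Figure D4:**
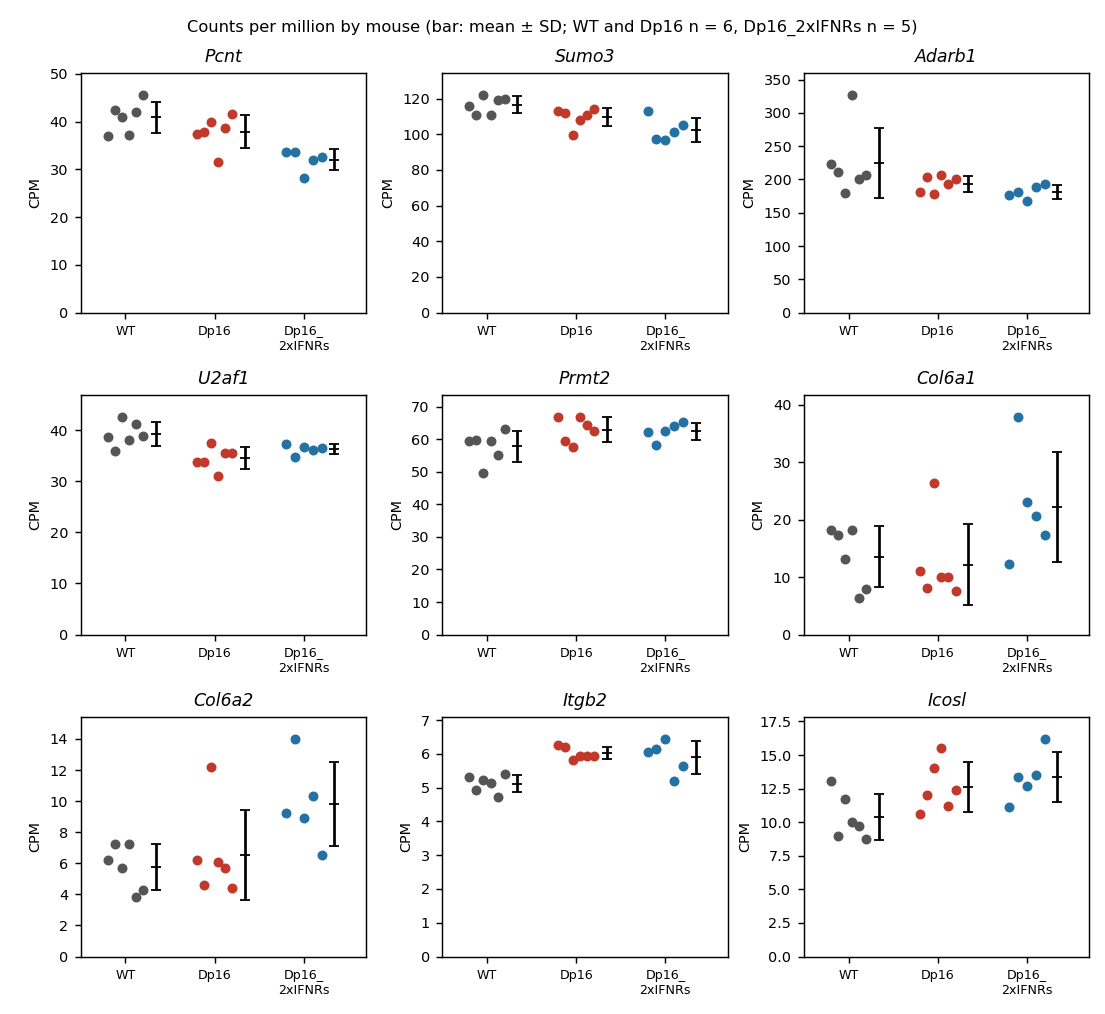
CPM (vertical axes, from 0) in each mouse (points) with mean and SD per group (bars) for the 9 orthologs with an unadjusted p under 0.05 against WT in either duplication group. Pcnt is the panel in which all 5 Dp16_2xIFNRs mice lie below all WT mice, Itgb2 the one in which all 6 Dp16 mice lie above all WT mice.

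S100b, the calcium-binding protein of astrocytes, was second in level at 95.9 RPKM. It measured 115 to 156 CPM in WT (median 138), 137 to 165 CPM in Dp16 (median 149) and 122 to 161 CPM in Dp16_2xIFNRs mice (median 135), with overlap throughout. Its log2 fold changes were 0.13 ± 0.09 and 0.03 ± 0.09. S100b and Dip2a overlap on opposite strands. In humans S100B is often named as a dosage-sensitive gene of trisomy, and here the 95% interval of its log2 fold change in Dp16 mice ran from -0.04 to 0.31, below the 0.58 of an extra copy.

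Cstb, the cystatin that inhibits lysosomal cathepsins, measured 13.1 to 15.6 CPM in WT (median 14), 12.1 to 15.5 CPM in Dp16 (median 13.7) and 10.7 to 15 CPM in Dp16_2xIFNRs mice (median 12.8). The groups overlapped, with log2 fold changes of -0.06 ± 0.09 and -0.17 ± 0.09. Its targets Ctsb (0.01 and -0.04) and Ctsl (-0.02 and -0.12) did not pass the test. Trpm2, a calcium channel gated by ADP-ribose, stood at -0.01 ± 0.08 and 0.11 ± 0.08.

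Col18a1, the collagen whose fragment is endostatin, measured 3.42 to 19 CPM in WT (median 9.4), 4.03 to 12.6 CPM in Dp16 (median 8.8) and 11.4, 11.4, 10.3, 9.37 and 3.95 CPM in the Dp16_2xIFNRs mice. The lowest mouse of each group was the one nearly free of choroid plexus markers, at 3.42, 4.03 and 3.95 CPM, while the other 14 mice had 6.21 to 19 CPM. The log2 fold changes were -0.21 ± 0.33 and -0.11 ± 0.35.

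The 5 tested genes of the centrosome, cilium and trafficking group had medians of -0.026 and -0.108, and Pcnt was the 1 that passed the test. Pcnt encodes pericentrin, a scaffold of the centrosome that anchors microtubule-nucleating complexes, and lies on chromosome 10 from 76351263 to 76442786. It measured 37.1 to 45.6 CPM in WT (median 41.5), 31.6 to 41.7 CPM in Dp16 (median 38.3) and 33.6, 33.7, 28.3, 31.9 and 32.7 CPM in the Dp16_2xIFNRs mice. All 5 Dp16_2xIFNRs mice were below all 6 WT mice, the only ortholog so placed, beside 2.17% of all genes without overlap in that comparison. Dp16 mice lay between and overlapped both groups.

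Pcnt fell by 0.36 on the log2 scale in Dp16_2xIFNRs mice against WT (SE 0.07, 0.781-fold, adjusted p = 0.0199 by edgeR). In Dp16 mice the change was -0.11 ± 0.07 (adjusted p = 0.648). The difference between the duplication groups, tested itself, was -0.25 ± 0.07 with an unadjusted p of 0.00334 and an adjusted p of 0.433. The call in Dp16_2xIFNRs mice was lost without Dp16_2xIFNRs replicate 3 (log2 fold change -0.31, adjusted p = 0.108) or replicate 4 (-0.36, adjusted p = 0.0541), and without WT replicate 4 and the 3 libraries low in choroid plexus (-0.33, adjusted p = 0.0597). It was also lost on log2 RPKM plus 1 (-0.27 on that scale, adjusted p = 0.0538). An antisense gene inside Pcnt, 1700094J05Rik, had 12 to 49 counts per library and log2 fold changes of -0.64 ± 0.26 in Dp16 and -0.76 ± 0.28 in Dp16_2xIFNRs mice (adjusted p = 0.465 and 0.189). A small coding gene inside it, AC141477.1, had 0 to 2 counts. The pericentrin-related scaffolds Cdk5rap2 (0.02 and 0.16) and Akap9 (0.04 and 0.02) did not pass the test.

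Trappc10, a subunit of a vesicle-tethering complex, was the least variable ortholog between mice of a genotype (coefficient of variation 3.39%). It measured 95.4 to 107 CPM in WT (median 98.6), 97.9 to 105 CPM in Dp16 (median 99.4) and 95 to 98.7 CPM in Dp16_2xIFNRs mice (median 96.3), with log2 fold changes of 0 ± 0.04 and -0.05 ± 0.04. Dip2a measured 78.3 to 96.5 CPM in WT (median 86), 80 to 87.9 CPM in Dp16 (median 85.3) and 79.5 to 91.5 CPM in Dp16_2xIFNRs mice (median 88.4), with changes of -0.03 ± 0.05 and -0.01 ± 0.05. The groups overlapped for both genes.

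Rsph1, a radial spoke protein of motile cilia, measured 2.17 to 12.1 CPM in WT (median 9.5), 4.06 to 12.9 CPM in Dp16 (median 7.53) and 9.28, 9.2, 9.36, 6.74 and 4.49 CPM in the Dp16_2xIFNRs mice. The lowest mouse of each group was again the one low in choroid plexus markers, at 2.17, 4.06 and 4.49 CPM against 6.52 to 12.9 CPM in the other 14. Lrrc3, a leucine-rich repeat membrane protein, stood at 0.14 ± 0.13 and -0.11 ± 0.13. Hsf2bp, a factor of meiotic recombination, had 0 to 17 counts per library and Spatc1l 0 to 4, and neither was tested.

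For 6 orthologs with a known cell type or stimulus, the level was compared with the matching marker list across mice, with permutation p-values adjusted over the 6 pairs. Rsph1 followed the ependymal markers most closely (r = 0.934, rho = 0.873, adjusted p = 6e-05 and 0.0003, 17 mice), with r = 0.802 without the 2 mice farthest from the median and 0.942 within genotypes. The p for r is the smallest these permutations can give after adjustment. The ependymal list was itself lowest in WT replicate 6 and Dp16 replicate 6 (mean log2 CPM 0.7 and 1.16), both nearly free of choroid plexus markers. In Dp16_2xIFNRs mice it was 1.88 in the low library, replicate 5, and lower in replicate 4 (1.65). Rsph1 was not compared with the choroid plexus markers, so a relation particular to ependymal cells was not tested. Col18a1 followed the choroid plexus markers among the 14 mice that had them (r = 0.721, rho = 0.604, adjusted p = 0.0121 and 0.0379). Without the 2 farthest mice r was 0.349, so the relation rests on them, and without Dp16 replicate 4 the adjusted p was 0.0565.

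Col6a1 followed the fibroblast markers (r = 0.556, adjusted p = 0.0402, and rho = 0.483, adjusted p = 0.0628). It was not compared with the mural markers across mice, so a relation particular to fibroblasts was not tested. With the fibroblast markers, r within genotypes was 0.418. Without the 2 farthest mice it was 0.582, but leaving out any 1 of 6 mice (Dp16 replicates 3, 4 and 6 and Dp16_2xIFNRs replicates 2, 3 and 4) brought the adjusted p to between 0.0542 and 0.0825. In those 6 cases r was 0.47 to 0.54. Sik1 moved with the immediate early genes (r = 0.522, rho = 0.647, adjusted p = 0.0442 and 0.0179). Without the 2 farthest mice r was 0.292, and leaving out any 1 of 13 mice, all except WT replicates 1, 3, 4 and 6, took the adjusted p above the threshold. In those 13 cases r was 0.42 to 0.54, so the threshold was crossed also where r did not fall. Each case had 1 mouse fewer, and its p-values were adjusted jointly over the 6 pairs. Without WT replicate 6, whose Sik1 level was lowest and which was nearly free of choroid plexus markers, r was 0.81 (adjusted p = 0.00078).

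S100b moved with the astrocyte markers to a like degree (r = 0.514, rho = 0.549, adjusted p = 0.0442 and 0.0379). Its r was 0.336 without the 2 farthest mice, and the adjusted p was no longer under 0.05 when any 1 of 12 mice was left out (0.0502 to 0.108). In those 12 cases r was 0.44 to 0.52. The adjusted p stayed under 0.05 only without WT replicate 1, 3, 4, 5 or 6. S100b was not compared with the oligodendrocyte markers, so a relation particular to astrocytes was not tested. Over all 17 mice together, no correlation of Itgb2 with the microglia markers was detected (r = -0.076, rho = -0.061, adjusted p = 0.77 and 0.816). That value mixes in the group differences, which were positive for Itgb2 and negative in the median of the microglia markers. Within genotypes r was 0.285, which was not tested, so a relation between mice of a genotype is not decided. Adarb1 against thalamic markers, a pair added after the values were seen, gave r = 0.405 among the 16 mice other than WT replicate 4 (adjusted p = 0.139 over 8 pairs) and 0.009 without the 2 farthest.

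**Figure D5:**
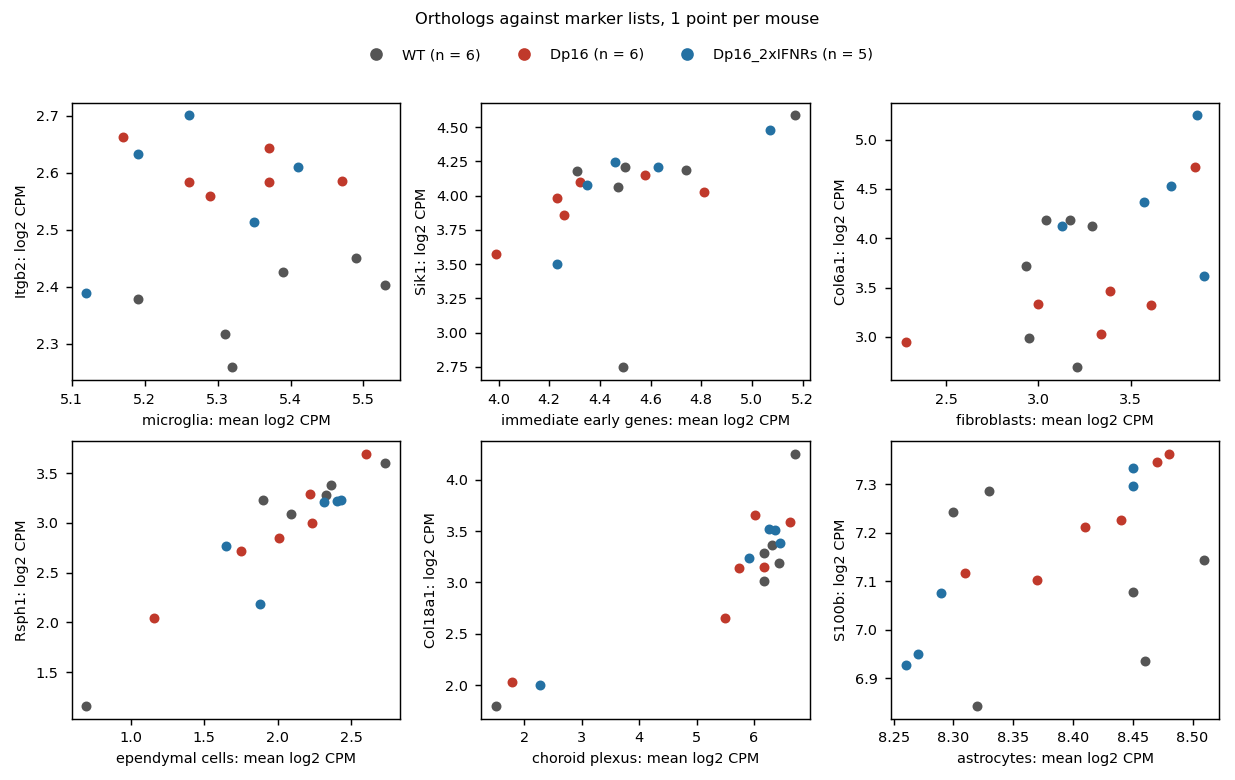
Log2 CPM of 6 orthologs (vertical axes) against the mean log2 CPM of their marker list (horizontal axes), 1 point per mouse, coloured by genotype. Rsph1 rises with the ependymal markers through all groups. The 3 mice nearly free of choroid plexus markers sit apart at the lower left of the Col18a1 panel. Itgb2 separates Dp16 from WT mice, with r = -0.076 against the microglia markers over all mice and 0.285 within genotypes.

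Genes that work with the orthologs were listed beside them. Of 62 partners and paralogs, 58 were tested, and 0 passed the edgeR test in either comparison with WT. Unadjusted, 6 of 58 were under 0.05 in Dp16 mice, 4 higher (5.61% of all genes) and 2 lower (3.97%). In Dp16_2xIFNRs mice 11 of 58 were, 5 higher (8.44% of all genes) and 6 lower (8.60%). DESeq2 called 0 in Dp16 (1.13% of all genes) and 5 in Dp16_2xIFNRs mice (3.61%). Among them were Col4a1 and Col4a2, which were higher, and Pknox2 (-0.31 ± 0.08) and Meis2 (-0.32 ± 0.1), homeodomain factors related to Pknox1, which were lower. The median log2 fold changes of the 58 were -0.003 and -0.008.

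Another 19 chromosome 21 orthologs on chromosomes 10 and 17 were listed as well, of which 8 were tested. One passed in both comparisons, Cbs, the cystathionine synthase of the pathway that turns homocysteine into cysteine. Cbs measured 26 to 27.8 CPM in WT (median 27.1), 17 to 19.1 CPM in Dp16 (median 17.9) and 15.1 to 19.7 CPM in Dp16_2xIFNRs mice (median 18). All mice with the duplication were below all WT mice. Of all tested genes, 0.990% were without overlap in Dp16 against WT and 2.17% in Dp16_2xIFNRs against WT. Cbs fell by 0.59 on the log2 scale in Dp16 (SE 0.06, adjusted p = 1.47e-05) and by 0.61 in Dp16_2xIFNRs mice (SE 0.07, adjusted p = 2.89e-05). The most abundant of the 8, Gatd3a (0.09 and 0.03) and Ndufv3 (-0.09 and -0.08), did not pass. Inside the 2 blocks of chromosomes 10 and 17 that hold the 38 orthologs, 24 other genes were tested, with medians of -0.088 and -0.067. Cbs was the 1 among them that passed, beside 0.537% of all genes in Dp16 and 0.980% in Dp16_2xIFNRs mice.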

How the data were processed

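Libraries were poly(A)-selected and strand-specific with 150-base paired reads, per the labels' protocols. Reads were aligned to GRCm38, and HISAT2 2.1.0 and HTSeq 0.6.1 are among the tools named, per the submitters' processing notes. The deposited tables hold unnormalized counts of each gene and RPKM of these libraries. Whether counting used strand, and the gene length behind RPKM, are not given in the sources used here, so values of overlapping genes are less certain. Gene positions came from GENCODE M21.

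Genes were kept by filterByExpr (minimum count 10; 18983 genes). In R 4.3.3, edgeR 4.0.16 fitted genotype and sex by quasi-likelihood to all 17 TMM-scaled libraries (13 residual degrees of freedom), and p-values were adjusted over all tested genes by Benjamini-Hochberg (threshold 0.05). Ratios of 1.5 were tested with an offset. Correlations used log2 CPM (prior count 2) and 100000 permutations, two-sided. Scripts were tested on simulated data. Alternatives used DESeq2 1.42.0, limma 3.58.1, other filters, scalings and covariates, and left out libraries.

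The 38 orthologs and all lists were chosen with earlier results of these data known. Named with full values were orthologs called in any comparison or with unadjusted p under 0.05 against WT, plus the 2 highest by RPKM per role; other genes are given in ranges or beside a partner, and Rrp1b, Pdxk, Sik1, Rsph1, Col18a1 and 1700094J05Rik were named after their values were seen. The labels do not say that mice came from separate litters, so p-values measure the spread between these mice. In 5 cases the same number stands in the identifiers of 2 mice from different groups. The labels do not explain it, and it was used only as a block in an alternative added after seeing the data. Values of some listed partner genes are not reported here.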

Additional observations from a re-analysis of the deposited data

Results flagged for a closer look

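A single mouse stood far from the rest of its group in 8 of the 105 combinations of ortholog and genotype; chance flags about 1 in 20. Adarb1 was at 327 CPM in WT replicate 4, the library high in thalamic markers, against 179 to 224 CPM in the other WT mice. Col6a1 and Col6a2 were at 26.4 and 12.2 CPM in Dp16 replicate 3, against 7.65 to 11 and 4.41 to 6.24 CPM in the other Dp16 mice. Rsph1 was at 2.17 CPM in WT replicate 6 (others 8.45 to 12.1), and Col18a1 at 3.95 CPM in Dp16_2xIFNRs replicate 5 (others 9.37 to 11.4), both libraries nearly free of choroid plexus markers. Agpat3 was at 292 CPM in WT replicate 6 (others 260 to 270), Pfkl at 241 CPM in Dp16 replicate 4 (others 197 to 212), and Pde9a at 10.8 CPM in Dp16 replicate 5 (others 13.7 to 14.5).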

How the results depend on the processing

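The count of called orthologs was 0 in Dp16 against WT and in Dp16_2xIFNRs against Dp16 under all 33 alternatives. In Dp16_2xIFNRs against WT the count of 1 became 3 with DESeq2, 2 without a filter and 2 on log2 RPKM plus 0.1. It was 0 without WT replicate 4 and the 3 libraries low in choroid plexus, an alternative chosen after seeing the data, and ran from 0 to 2 when each library was left out (0 without Dp16_2xIFNRs replicate 3 or 4, 2 without replicate 1). On log2 RPKM plus 1 the count there stayed at 1, but the gene was Sumo3 (adjusted p = 0.042 by limma) and no longer Pcnt (0.0538). For both duplication groups against WT the count of 0 became 1 with DESeq2 and with age added, where the gene was Pcnt. It also became 1 on log2 RPKM plus 0.1 or plus 1, where the gene was Sumo3. Over left-out libraries it ran from 0 to 1 (Pcnt without Dp16 replicate 6). The median ortholog in Dp16 against WT ran from -0.026 to 0.012 over left-out libraries, the lowest without Dp16 replicate 3. Counts below 1.5-fold stayed at 31 to 34 and 28 to 33 of 35. Over left-out libraries r ran from 0.58 to 0.8 for Col18a1, 0.47 to 0.62 for Col6a1, 0.44 to 0.64 for S100b, 0.42 to 0.81 for Sik1 and -0.21 to 0.02 for Itgb2, and on log2 RPKM plus 0.1 it was 0.46 for S100b (adjusted p = 0.0797). The cause of these changes was not tested. Same-numbered libraries of different groups were not paired by the labels (mean correlation of deviations 0.0772 over 16 pairs, -0.0141 for others; 5 of 17 libraries matched best with their own number). With the replicate block, 0 orthologs were called in Dp16 against WT, 1 in Dp16_2xIFNRs against WT, 0 in Dp16_2xIFNRs against Dp16 and 0 for both groups; medians were -0.001 and -0.016, and 34 and 32 were below 1.5-fold. The 5 pairs of mice that share a number in their identifiers had a mean correlation of deviations of 0.0126 (-0.223 to 0.301), against 0.000473 for the other 91 pairs of mice of different groups. With that number as a random block in limma-voom, an alternative chosen after seeing the data, the counts were 0, 1, 0 and 0 in the same order of comparisons. Ftcd, Hsf2bp and Spatc1l had too few counts to be tested (at most 17 per library), and whether depth was the limit was not tested. Small differences such as those of Itgb2 (4.72 to 6.44 CPM) rest on 151 to 205 counts per library.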
